A study of Mus musculus with 15 samples.

Results

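The 8 genes described here encode receptor chains through which CD4+ T cells sense cytokines of the interleukin-7, interleukin-4, interleukin-6 and interferon families: Il7r, Il4ra, Il21r, Il6ra, Il6st, Il27ra, Ifngr1 and Ifnar1. Accessible chromatin was mapped by ATAC-seq, in which the Tn5 transposase cuts and tags open DNA. The submitters' peak lists of 15 libraries were merged into regions, and each region seen in at least 2 libraries was assigned to the nearest protein-coding gene within 100 kb. This gave 92 regions for the 8 genes, of 83743 regions tested in all: 20 for Il6st, 16 for Ifngr1, 15 for Il6ra, 14 for Il4ra, 10 for Ifnar1, 9 for Il21r, 7 for Il7r and 1 for Il27ra. Of the 92 regions, 35 were called in all 15 libraries and 57 in some of them. The cells were CD4+ T cells of mice lacking Irf5 (IRF5-/-), the gene of a transcription factor of the interferon regulatory factor family, or carrying it intact (IRF5+/+). There were 4 IRF5-/- and 4 IRF5+/+ libraries of cells activated for 72 h in culture, and 3 IRF5-/- (replicates 1, 3 and 4) and 4 IRF5+/+ libraries of untreated cells at 0 h. The labels give neither the activating agent, the mouse strain, age and sex, nor the deleted part of Irf5. They also do not say whether replicate libraries were made from different mice, so the spread between libraries may be technical. For peak heights that are not centred by library, p-values rest on a spread pooled over all regions, not on that of each region. No library was cultured untreated for 72 h, so activation and time in culture cannot be told apart. Irf5 itself had 5 regions, called in similar numbers of libraries of both genotypes (0 called by genotype, lowest unadjusted exact p = 0.4286), so accessibility at Irf5 does not test the genotype labels.

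Each of these receptors works through Janus kinases and STAT transcription factors. The interleukin-7 receptor chain Il7r pairs with the common gamma chain and keeps naive T cells alive, and T cells are known to lower it after antigen contact. Il4ra, which signals through STAT6 in helper T cells of type 2, and Il21r, the receptor of a follicular helper cytokine, also pair with the common gamma chain. Il6ra binds interleukin-6 and hands it to Il6st (gp130), the shared signalling chain that Il27ra also uses for interleukin-27. Ifngr1 and Ifnar1 are ligand-binding chains of the type II and type I interferon receptors. Peaks near such genes mark promoters and candidate enhancers, but a peak does not measure the receptor's expression. In bulk samples, fewer cells with an open site and a lesser opening in each cell cannot be told apart.

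The windows around the starts of Il7r, Il6ra and Ifnar1, each from 250 bases before to 50 bases after the start, are shown because they lie under peaks called in every library and because the peak summits of Il7r and Il6ra lay, in most libraries, at other positions at 72 h than at 0 h. Median summits also differed at Il21r (−68.5 bases from the start at 72 h, 2 at 0 h) and Ifngr1 (−62 and −96). Their ranges overlap between the times, and their windows are not shown. Sequences are RefSeq's for GRCm38.p6, the assembly behind mm10, given 5′ to 3′ on the gene's strand: Il7r at chr15:9529827-9530126 on the minus strand, Il6ra at chr3:89913147-89913446 on the minus strand and Ifnar1 at chr16:91484965-91485264 on the plus strand. Capitals mark matches to a STAT-type motif (TTCNNNGAA) or an ETS-type motif (GGAAGT, or ACTTCC where it lies on the other strand).
Il7r: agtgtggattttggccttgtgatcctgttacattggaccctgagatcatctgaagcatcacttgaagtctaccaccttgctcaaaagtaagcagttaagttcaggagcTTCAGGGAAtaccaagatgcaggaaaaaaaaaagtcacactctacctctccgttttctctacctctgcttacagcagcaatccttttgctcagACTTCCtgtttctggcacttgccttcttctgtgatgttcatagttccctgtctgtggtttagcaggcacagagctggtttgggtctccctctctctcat
Il6ra: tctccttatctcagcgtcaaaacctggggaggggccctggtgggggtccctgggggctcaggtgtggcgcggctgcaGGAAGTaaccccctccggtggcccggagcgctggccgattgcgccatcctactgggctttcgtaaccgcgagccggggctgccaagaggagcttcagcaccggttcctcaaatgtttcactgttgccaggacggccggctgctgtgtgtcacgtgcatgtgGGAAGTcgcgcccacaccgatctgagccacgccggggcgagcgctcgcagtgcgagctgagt
Ifnar1: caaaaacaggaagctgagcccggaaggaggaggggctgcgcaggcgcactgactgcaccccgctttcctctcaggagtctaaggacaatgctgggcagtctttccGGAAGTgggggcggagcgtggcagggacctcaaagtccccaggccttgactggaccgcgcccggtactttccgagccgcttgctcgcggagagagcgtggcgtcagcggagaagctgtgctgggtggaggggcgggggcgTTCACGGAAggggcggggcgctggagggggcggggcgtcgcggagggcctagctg

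Windows were matched for 7 of the 8 genes, all but Il27ra. Il7r had the lowest GC content, 45.7%, against 56.0% for Il21r, 60.3% for Ifngr1, 62.0% for Il4ra, 66.0% for Il6ra and 68.3% for both Il6st and Ifnar1. Both strands were searched for 4 motifs. The STAT-type motif was found in 2 of the 7 windows and in 7.69% of all 21263 protein-coding windows: in Il7r its first base lay at −142 from the start and in Ifnar1 at −5, where negative positions lie before the start. The ETS-type motif was found in 3 of the 7 windows and in 24.8% of all: once in Il7r, once in Ifnar1, and at −173 and −12 in Il6ra. The interferon-regulatory-factor-type motif (3.35% of all windows) and the AP-1-type motif (TGANTCA, 6.99%) were in 0 of the 7. No marked motif overlaps another, and a match of letters is no evidence that a factor binds.

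Library depth was 20.5 M to 29.0 M fragments after duplicates were removed. Over the 21176 regions called in all libraries, the median peak height, the highest pileup in a region, was 2.14 to 2.35 FPM (fragments per 1000000 fragments of the library) in IRF5-/- cells at 72 h, 2.29 to 2.90 in IRF5+/+ cells at 72 h, 1.80 to 4.38 in IRF5-/- cells at 0 h and 3.88 to 5.07 in IRF5+/+ cells at 0 h. The value of 1.80 belongs to IRF5-/- replicate 3 at 0 h, which also had the fewest peaks, 29994. Over all these regions the median difference of 72 h minus 0 h was −0.66 on the log2 scale. Differences are therefore given on both the FPM scale and a relative scale, in which each library is centred on its own median, and a rise or fall below refers to the relative scale unless the FPM scale is named. Heights of single libraries are in FPM, so a lack of overlap between the times includes the shift of all regions. How many of all regions lack overlap was not counted. Regions at the starts of 12 CD4 T cell marker genes were called for 10 to 12 genes in every group, with summed heights of 18.5 to 24.5, 23.4 to 29.6, 29.9 to 69.1 and 65.4 to 82.9 FPM in the groups just listed. Cd4 itself had the lowest mean heights of the 12 and was called in 5 of 8 libraries at 72 h and 3 of 7 at 0 h. Its means were 0.747 and 0.941 FPM, with a library without a peak counted as 0. At most 2 of 8 CD8 T and NK cell genes, 2 of 8 B cell genes and 3 of 8 myeloid genes had a start region called. Cd8a, Ncr1, Eomes, Pax5, Csf1r and Spi1 had none in any library. Klrk1, of the CD8 T and NK cell list, was called in 8 of 8 libraries at 72 h and 0 of 7 at 0 h, with a mean height of 5.265 FPM at 72 h, and Cd8b1 in all 15, at means of 0.725 at 72 h and 2.995 at 0 h. Of the B cell list, Cr2 was called in all 15 (means 5.035 at 72 h and 2.435 at 0 h) and Blk in 7 of 8 and 1 of 7. Of the myeloid list, Cebpa was called in all 15 (1.599 and 1.852), Cd14 in 8 of 8 and 6 of 7, and Itgam in 0 of 8 and 6 of 7. The summed heights of the CD8 T and NK cell list were 4.45 to 6.15 in IRF5-/- and 5.02 to 7.39 in IRF5+/+ cells at 72 h, against 1.42 to 3.46 and 3.01 to 3.36 at 0 h. Those of the B cell list were 4.90 to 6.50 and 5.05 to 6.57 at 72 h, against 1.15 to 3.07 and 2.28 to 3.52 at 0 h, and those of the myeloid list 2.31 to 2.90 and 2.31 to 3.03, against 1.30 to 3.75 and 3.30 to 5.38. Their part in the results below was not tested.

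The comparison of activated with untreated cells asked which regulatory regions of the receptor genes opened or closed over 72 h. Presence of a peak was gained at 9 of the 92 regions and lost at 9 (9.78% each), by a stratified exact test with Benjamini-Hochberg adjustment over all regions. Over all 83743 regions, 18.4% were gained and 4.65% lost. Regions called in every library cannot change by this measure. Without them 24.6% of all regions were gained and 6.23% lost, and on that basis the members were 9 gained and 9 lost of 57. The gained regions lay at Il4ra (4), Il6ra (2), Il6st (2) and Il7r (1). The lost regions lay at Ifngr1 (3), Il6st (3), Ifnar1 (1), Il6ra (1) and Il21r (1). With an equal number of the strongest peaks taken from each library, 6 were gained and 18 lost, beside 6629 and 6335 of all 44850 regions tested in that setting. Without IRF5-/- replicate 3 at 0 h, 9 were gained and 7 lost, beside 12773 and 3613 of all 83693.

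Peak height was compared at the 35 regions called in all 15 libraries with limma. On the relative scale 8 rose and 22 fell, that is 22.9% and 62.9%, against 34.4% and 39.1% of all 21176 regions. The median relative difference was −0.58 on the log2 scale over the 35 regions and −0.04 over all. On the FPM scale 1 rose and 29 fell, against 8.89% and 65.4% of all regions. Within genotypes, 6 regions rose and 20 fell on the relative scale in IRF5-/- cells, against 29.3% and 32.9% of all regions. In IRF5+/+ cells 6 also rose and 20 fell, against 29.8% and 33.3% of all. On the FPM scale, the counts were 1 and 22 in IRF5-/- cells (7.57% and 39.7% of all) and 0 and 28 in IRF5+/+ cells (5.14% and 65.2% of all).

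**Figure D1:**
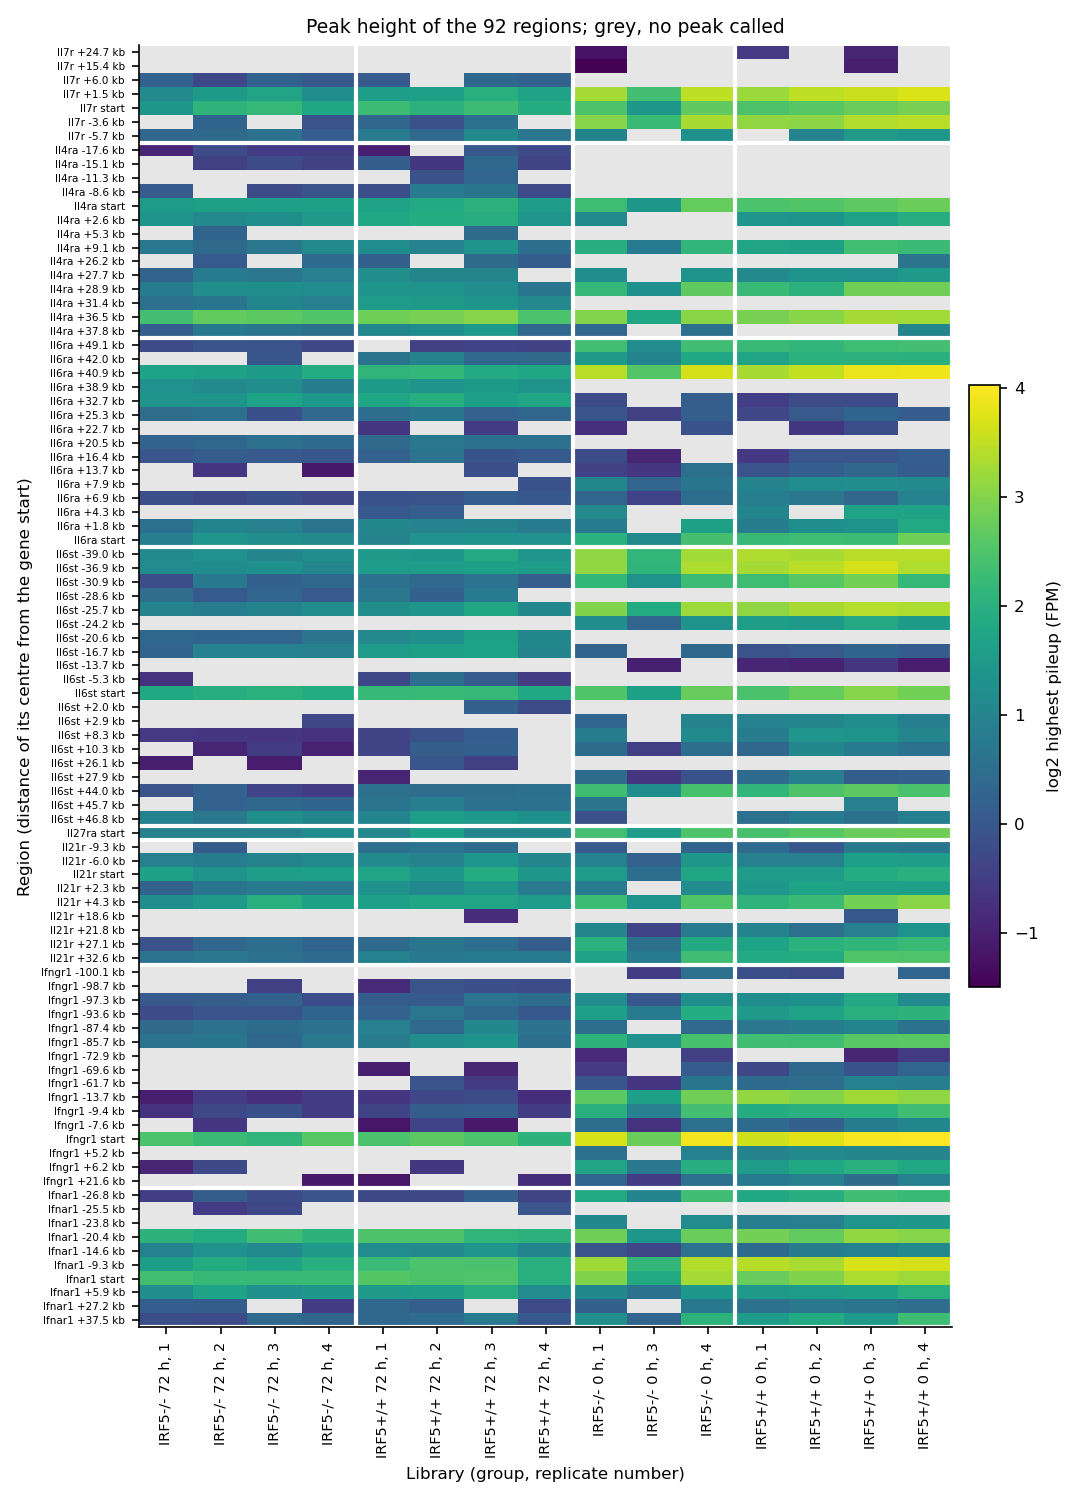
Heat map of the highest pileup (log2 of FPM) of the 92 regions, down the page by gene and genomic order, in the 15 libraries, across by group and replicate number. Grey marks libraries with no called peak. The 9 gained regions, 4 of them of Il4ra, are coloured in 7 or 8 columns at 72 h and grey in all 7 at 0 h.

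Il7r kept its promoter peak while peaks on either side of it shrank. The region 1.50 kb past the start, inside the gene (chr15:9527932-9528811), had 2.18, 2.87, 3.29 and 2.34 FPM in IRF5-/- and 3.04, 3.08, 3.90 and 3.23 in IRF5+/+ cells at 72 h, against 9.71, 5.20 and 11.3 in IRF5-/- and 9.19, 11.3, 12 and 13.2 in IRF5+/+ cells at 0 h. All 8 libraries at 72 h lay below all 7 at 0 h in FPM, which includes the shift of all regions. The relative height fell by 1.10 on the log2 scale (SE 0.08, limma adjusted p = 5.07e-18), which is 2.14-fold.

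The region 3.60 kb before the Il7r start (chr15:9533041-9533905) was called in 5 of 8 libraries at 72 h and in all 7 at 0 h. Its height was 1.21 and 0.936 in the 2 IRF5-/- and 1.26, 0.907 and 1.46 in the 3 IRF5+/+ libraries that called it at 72 h, against 8.19, 4.74 and 9.89 in IRF5-/- and 8.66, 8.41, 10.6 and 11.0 in IRF5+/+ cells at 0 h. These groups do not overlap. Presence alone did not pass the test (adjusted p = 0.445), while the fit over regions called in at least 2 libraries of each group, which drops the 3 libraries with no peak, gave an FPM log2 difference of −2.89 (SE 0.22, adjusted p = 9.66e-36). That p rests on a spread pooled over all regions, not on the spread of this region alone. A conserved enhancer upstream of Il7r is known to bind the factor Foxo1 and the glucocorticoid receptor. It was not established here whether this region is that enhancer.

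The region over the Il7r start (chr15:9529477-9530241) had 2.67, 4.24, 4.53 and 3.37 FPM in IRF5-/- and 4.86, 4.17, 4.86 and 3.81 in IRF5+/+ cells at 72 h, against 5.61, 2.72 and 6.43 in IRF5-/- and 5.58, 6.07, 6.92 and 7.48 in IRF5+/+ cells at 0 h. The groups overlap through IRF5-/- replicate 3 at 0 h. The log2 difference was −0.45 on the FPM scale (SE 0.19, limma adjusted p = 0.0289) and 0.17 on the relative scale (SE 0.08, limma adjusted p = 0.0472), so its direction turns with the scaling. Both calls are close to the threshold. The relative rise had an adjusted p of 0.0568 without that library, and the FPM fall lost its call in 7 of 15 fits without a library, with p up to 0.101. By the deposited fold enrichment the difference was 0.99 (limma adjusted p = 1.55e-07).

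The shape of this peak differed between the times. Its summit lay 147 bases past the start in all 4 IRF5-/- libraries and 66, 61, 21 and 146 bases past it in IRF5+/+ cells at 72 h, against −10, 23 and 7 in IRF5-/- and −21, −7, −12 and 23 in IRF5+/+ cells at 0 h. The peak covered 582 to 740 bases at 72 h, against 259 to 402 bases at 0 h, with no overlap. At 0 h all 7 summits lie inside the printed window, after its ETS-type match, and at 72 h those of 7 of 8 libraries lie beyond its end. Neither measure was tested, since both were examined after their values were seen, and neither was set beside all regions.

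A gained Il7r region inside the gene, 5.98 kb past the start (chr15:9523601-9524197), had 1.16, 0.807, 1.15 and 1.03 FPM in IRF5-/- cells and 1.05, 1.26 and 1.17 in 3 IRF5+/+ libraries at 72 h. It was called in 7 of 8 libraries at 72 h and in 0 of 7 at 0 h (exact test, adjusted p = 0.0121). Peaks enter a list from a height of 0.318 to 0.402 FPM on, so a region without a peak is low but not shown to be closed.

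**Figure D2:**
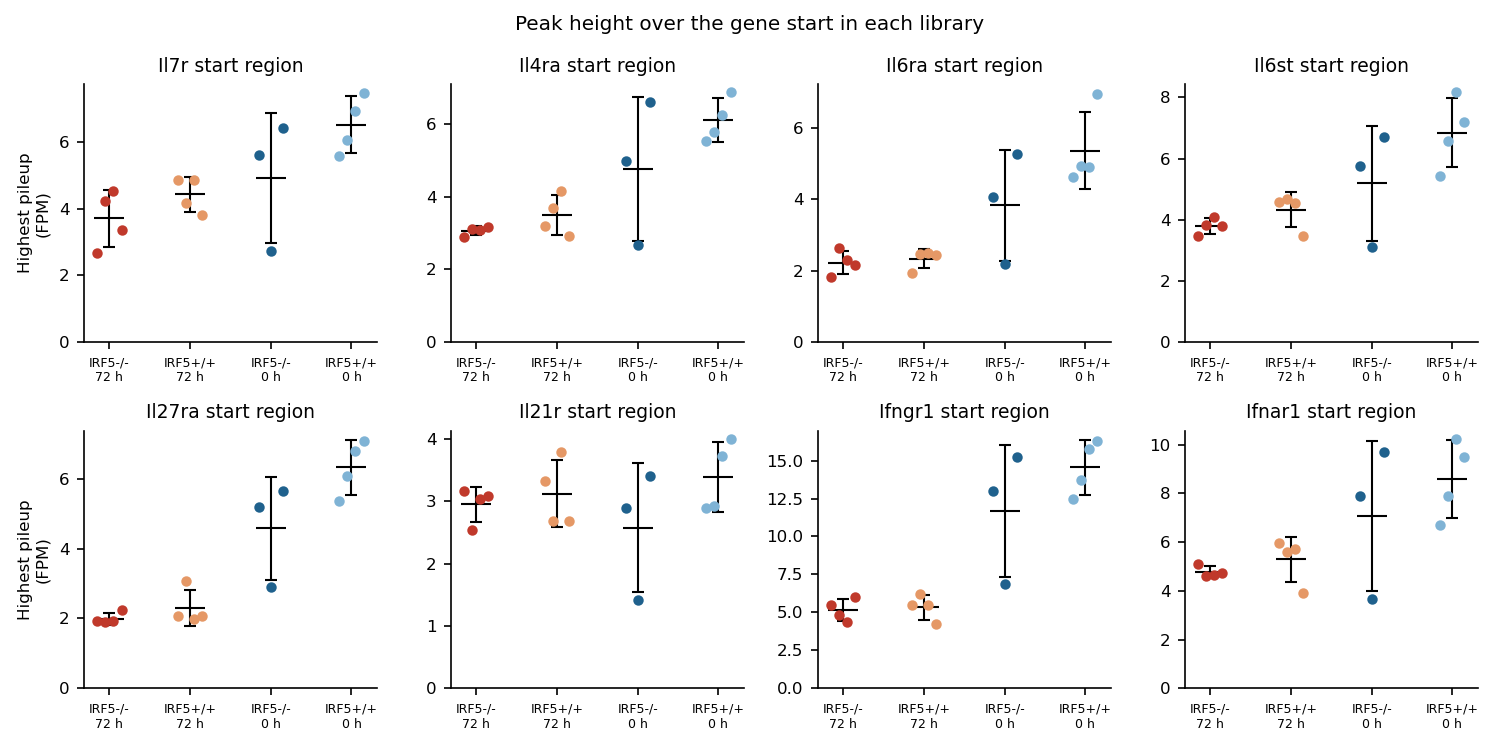
Highest pileup over the start of each of the 8 genes (FPM, axes from 0), 1 point per library, with the group mean and SD as bars. For Il27ra, which has no promoter window, the region over a gene boundary is shown. The IRF5-/- point near the bottom at 0 h in each panel is replicate 3; at Ifngr1 the 8 libraries at 72 h lie between 4.24 and 6.21, below the lowest 0 h library at 6.85.

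Il4ra held 4 of the 9 gained regions and none of those lost. Its mean number of called regions was 11.25 in IRF5-/- and 12 in IRF5+/+ cells at 72 h, against 5.667 and 6.5 at 0 h, and no library at 72 h had fewer than 10 while none at 0 h had more than 8. The 4 gained regions fall on both sides of the gene. Those before the start lay 17.6 kb (chr7:125534380-125535071), 15.1 kb (chr7:125536889-125537435) and 8.57 kb (chr7:125543485-125543914) upstream, each in 7 of 8 libraries at 72 h and 0 of 7 at 0 h (exact test, adjusted p = 0.0121 for each). Each is low, at 0.486 to 1.74 FPM where called.

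The gained region beyond the 3′ end of Il4ra was the tallest of its 4 and lies between Il4ra and its neighbour Il21r, 3695 bases past the Il4ra boundary (chr7:125583169-125584229). It had 1.42, 1.57, 2.05 and 1.87 FPM in IRF5-/- and 2.88, 2.76, 2.56 and 2.14 in IRF5+/+ cells at 72 h, with no peak at 0 h in any of the 7 libraries (exact test, adjusted p = 0.00399). By distance to the nearest start, this region and the others beyond the Il4ra 3′ end go to Il21r. Counted by nearest start, Il4ra held 8 regions and Il21r 17.

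Of the 4 Il4ra regions called in all libraries, the tallest lies 8973 bases beyond the gene (chr7:125588447-125589175), at 5.16, 6.54, 6.19 and 5.75 FPM in IRF5-/- and 7.01, 7.47, 8.08 and 5.48 in IRF5+/+ cells at 72 h, against 7.98, 3.37 and 8.28 in IRF5-/- and 7.45, 8.31, 9.67 and 9.58 in IRF5+/+ cells at 0 h. Its relative height rose by 0.44 (log2, SE 0.06, limma adjusted p = 1.08e-08), while its FPM difference of −0.18 did not pass the test (adjusted p = 0.379). By the deposited fold enrichment over local background it was called in the other direction, at −0.25 (limma adjusted p = 0.00755), so its direction turns with the measure. The regions 9.08 kb past the start and 1271 bases beyond the gene fell by 0.33 (SE 0.11) and by 0.51 (SE 0.10) on the relative scale. The start region (chr7:125551456-125552729) averaged 3.06 ± 0.123 in IRF5-/- and 3.50 ± 0.555 in IRF5+/+ cells at 72 h (SD, n = 4 each), against 4.76 ± 1.98 in IRF5-/- (n = 3) and 6.12 ± 0.595 in IRF5+/+ cells (n = 4) at 0 h. On the FPM scale it fell by 0.68 on the log2 scale (limma adjusted p = 0.00104), which is close to the shift of all regions, and the relative difference was −0.06 (adjusted p = 0.5). By the deposited fold enrichment it was called lower, at −0.55 (limma adjusted p = 3.1e-05), beside a median of −0.24 over all regions.

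Il21r, next to Il4ra on chromosome 7, had a start region that did not pass the test on the FPM scale. Those of the other 7 genes fell, that of Il7r with the call near the threshold described above, and whether the genes differ was not tested. The start region (chr7:125602939-125603769) had 3.16, 2.54, 3.03 and 3.09 FPM in IRF5-/- and 3.32, 2.69, 3.79 and 2.68 in IRF5+/+ cells at 72 h, against 2.90, 1.42 and 3.41 in IRF5-/- and 2.90, 2.93, 3.72 and 4.0 in IRF5+/+ cells at 0 h. The groups overlap. The FPM log2 difference was 0.09 (adjusted p = 0.706) and the relative height rose by 0.71 (SE 0.09, limma adjusted p = 2.62e-09). Without IRF5-/- replicate 3 at 0 h the FPM value was −0.11. The peak covered 576 to 826 bases at 72 h, against 359 to 512 bases at 0 h. The region 6.05 kb before the start (chr7:125597007-125597752) likewise rose by 0.61 on the relative scale (limma adjusted p = 3.67e-06), with an FPM difference of −0.01. By the deposited fold enrichment it was at −0.10 (limma adjusted p = 0.458).

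Inside Il21r the pattern was the opposite. The region 21.8 kb past the start (chr7:125624908-125625533) had no peak in any library at 72 h, against 2.01, 0.765 and 1.71 FPM in IRF5-/- and 1.96, 1.45, 1.86 and 2.53 in IRF5+/+ cells at 0 h (exact test, adjusted p = 0.00399). The region 27.1 kb past the start (chr7:125630193-125630813) fell by 0.79 on the relative scale (SE 0.11, limma adjusted p = 4.76e-09), and the region 32.6 kb past the start, beyond the gene, by 0.59 (SE 0.10). The region 4.34 kb past the start had a relative difference of −0.06. It was called lower on the FPM scale, at −0.68 (limma adjusted p = 0.000979), and by the deposited fold enrichment, at −0.51 (limma adjusted p = 0.00158).

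**Figure D3:**
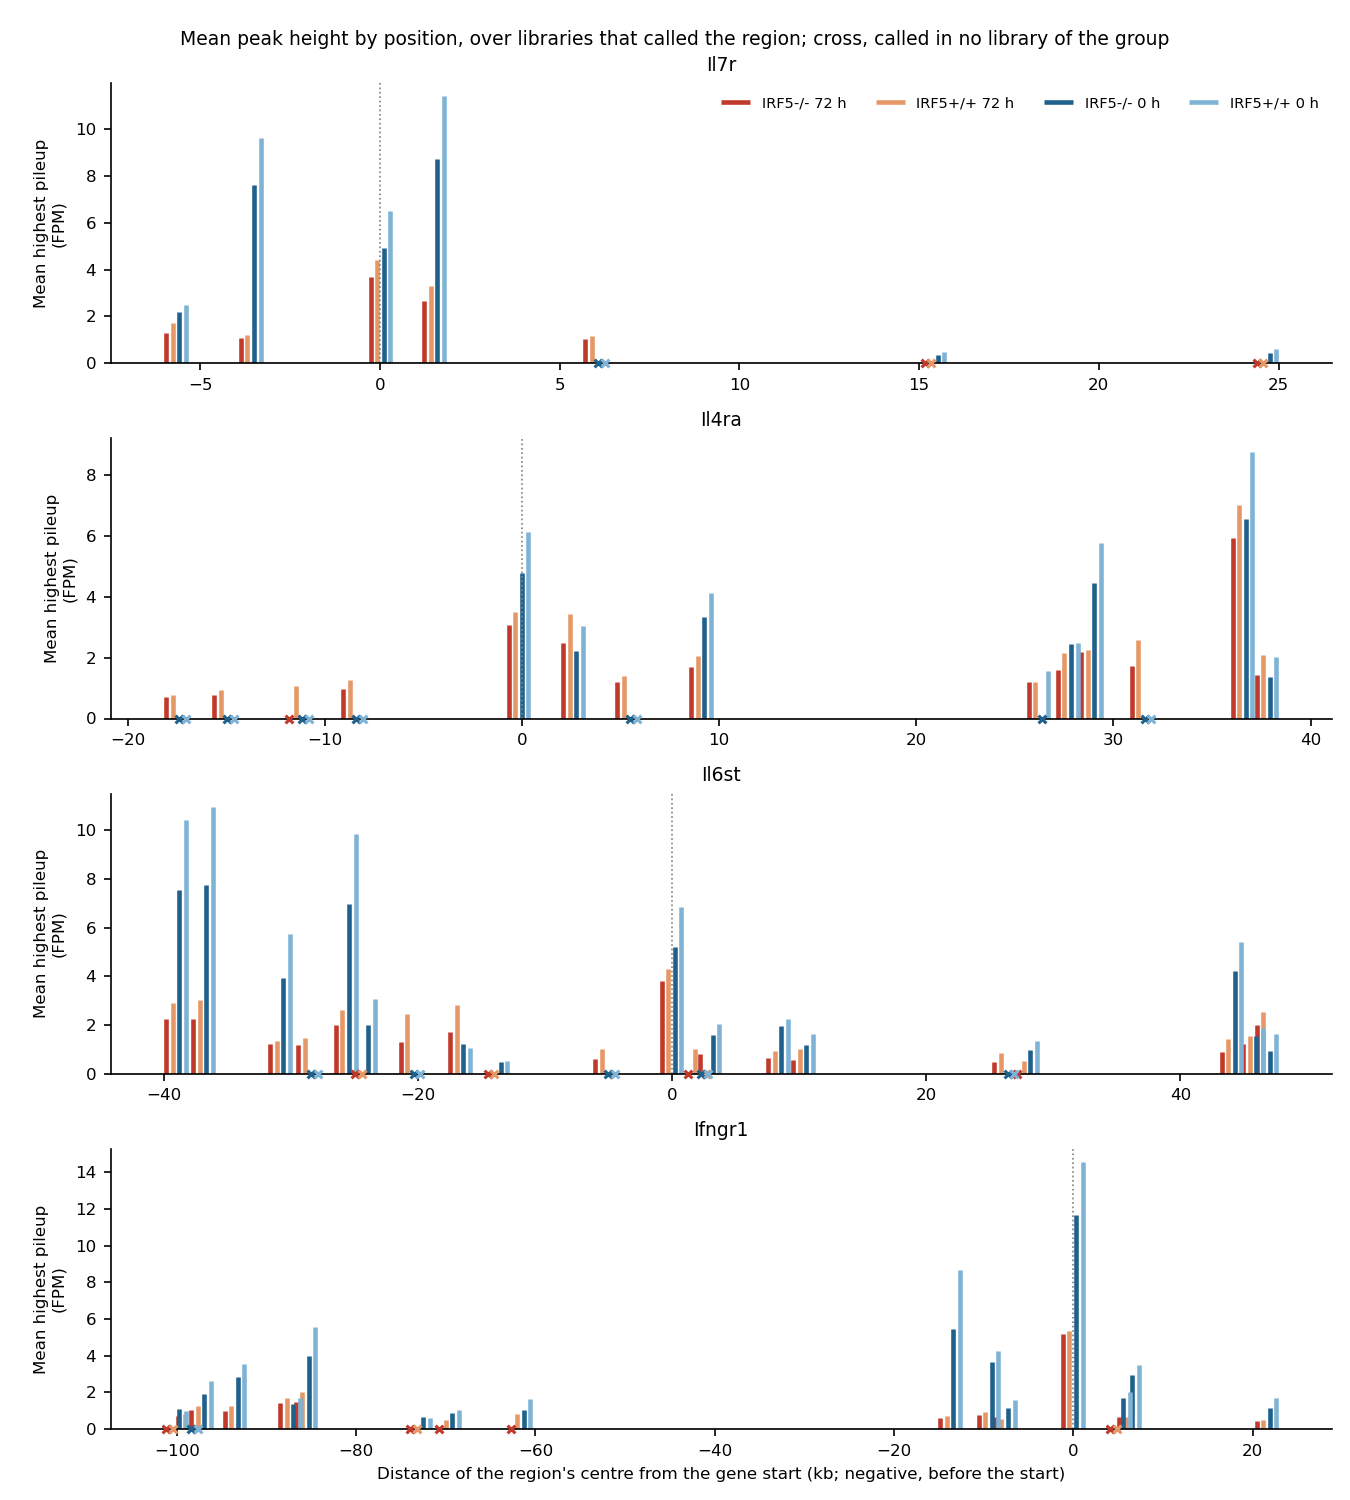
Mean highest pileup (FPM, over the libraries that called a region) against the distance of the region's centre from the gene start (kb), for Il7r, Il4ra, Il6st and Ifngr1, with 1 bar per group and a cross where no library of the group called it. Bars at 72 h are far below those at 0 h 3.60 kb before the Il7r start, at the 4 Il6st regions 25.7, 30.9, 36.9 and 39.0 kb before the start, between which the gained region at 28.6 kb has bars at 72 h and crosses at 0 h, and 13.7 kb before the Ifngr1 start.

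Il6ra gained and lost peaks inside the gene. Gained were the regions 38.9 kb (chr3:89874064-89874511) and 20.5 kb (chr3:89892371-89892978) past the start, both in 8 of 8 libraries at 72 h and 0 of 7 at 0 h (exact test, adjusted p = 0.00399 for each). Heights at 38.9 kb were 2.45, 2.18, 2.35 and 1.78 FPM in IRF5-/- and 2.84, 2.58, 2.83 and 2.53 in IRF5+/+ cells, and at 20.5 kb between 1.2 and 1.63 in the 8 libraries. Lost was the region 7.92 kb past the start (chr3:89905094-89905466), in 1 of 8 libraries at 72 h at 0.933, against 2.05, 1.22 and 1.56 in IRF5-/- and 1.96, 2.28, 2.31 and 2.18 in IRF5+/+ cells at 0 h (exact test, adjusted p = 0.0121).

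The tallest Il6ra region, 40.9 kb past the start and near the gene's end (chr3:89871948-89872715), had 3.25, 3.11, 2.86 and 3.79 FPM in IRF5-/- and 4.34, 4.46, 3.67 and 3.34 in IRF5+/+ cells at 72 h, against 10.9, 5.82 and 12.8 in IRF5-/- and 9.82, 11.5, 14.6 and 14.7 in IRF5+/+ cells at 0 h. The groups do not overlap, and the relative height fell by 0.97 on the log2 scale (SE 0.07, limma adjusted p = 1.92e-17). A weaker region 25.3 kb past the start (chr3:89887638-89888100) rose by 1.04 (SE 0.14, limma adjusted p = 7.45e-09). Its FPM difference of 0.42 had a limma adjusted p of 0.0506 with all libraries and of 0.0238 to 0.112 with 1 library left out. Another, 32.7 kb past the start (chr3:89880019-89880925), was at 2.58 to 3.92 in the 8 libraries at 72 h, against 0.714 to 1.12 in the 5 libraries that called it at 0 h. In the fit over regions called in at least 2 libraries of each group it gave an FPM log2 difference of 1.80 (SE 0.22, adjusted p = 9.03e-16). In that fit the largest Il6ra difference was at a region 49.1 kb past the start, beyond the gene (chr3:89863752-89864460), which had 0.846, 0.969, 0.939 and 0.795 FPM in IRF5-/- cells and 0.726, 0.766 and 0.739 in the 3 IRF5+/+ libraries that called it at 72 h, against 5.12, 2.26 and 5.02 in IRF5-/- and 4.69, 4.38, 4.98 and 5.23 in IRF5+/+ cells at 0 h. The groups do not overlap, and the FPM log2 difference was −2.41 (SE 0.20, adjusted p = 3.92e-31).

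The Il6ra start region (chr3:89912291-89913772) averaged 2.23 ± 0.332 in IRF5-/- and 2.34 ± 0.262 in IRF5+/+ cells at 72 h (SD, n = 4 each), against 3.83 ± 1.55 in IRF5-/- (n = 3) and 5.36 ± 1.08 in IRF5+/+ cells (n = 4) at 0 h. Its relative height fell by 0.32 (SE 0.09, limma adjusted p = 0.00184). At 0 h the summit sat 3 to 8 bases past the start in all 7 libraries. At 72 h it lay 63, 326, 326 and 86 bases past it in IRF5-/- and 39, 396, −29 and 341 in IRF5+/+ cells. This position was not tested.

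The gp130 gene Il6st had a block of tall peaks upstream that shrank together. In order of position they lie 39.0 kb (chr13:112424275-112425771), 36.9 kb (chr13:112426225-112428060), 30.9 kb (chr13:112432729-112433719) and 25.7 kb (chr13:112437964-112438804) before the start. Their relative heights fell by 1.13, 1.15, 1.23 and 1.2 on the log2 scale (SE 0.07 to 0.11), with limma adjusted p between 1.49e-19 and 1.23e-13. The region at 36.9 kb had 2.27, 2.26, 2.43 and 2.06 FPM in IRF5-/- and 2.92, 3.05, 3.14 and 2.96 in IRF5+/+ cells at 72 h, against 8.76, 4.32 and 10.2 in IRF5-/- and 9.68, 11.0, 12.8 and 10.4 in IRF5+/+ cells at 0 h. None of the 4 overlaps between the times in FPM, the scale on which 65.4% of all 21176 regions were called lower.

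Il6st also gained 2 regions and lost 3. Gained were 28.6 kb before the start (chr13:112435206-112435645, 7 of 8 libraries against 0 of 7, exact test adjusted p = 0.0121) and 20.6 kb before it (chr13:112443105-112443857, 8 of 8 against 0 of 7, exact test adjusted p = 0.00399). The region at 20.6 kb had 1.29, 1.21, 1.24 and 1.54 FPM in IRF5-/- and 2.15, 2.43, 3.10 and 2.06 in IRF5+/+ cells at 72 h. Lost was the region 24.2 kb before the start (chr13:112439574-112440232), in 0 of 8 libraries at 72 h, against 2.29, 1.22 and 2.53 in IRF5-/- and 3.03, 2.83, 3.56 and 2.85 in IRF5+/+ cells at 0 h (exact test, adjusted p = 0.00399). The other lost regions lie 27.9 kb past the start (chr13:112491580-112492414, 1 of 8 against 7 of 7, exact test adjusted p = 0.0121) and 13.7 kb before it (chr13:112450162-112450507, 0 of 8 against 5 of 7). The call at 13.7 kb (exact test, adjusted p = 0.0308) ended in 13 of 15 fits that left out a library, where p reached 0.111.

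Beyond the Il6st 3′ end, 654 bases past the gene (chr13:112507514-112508685), height was 0.934, 1.17, 0.768 and 0.702 FPM in IRF5-/- and 1.46, 1.38, 1.42 and 1.44 in IRF5+/+ cells at 72 h, against 5.05, 2.29 and 5.31 in IRF5-/- and 4.42, 5.55, 6.19 and 5.46 in IRF5+/+ cells at 0 h. It fell by 1.42 (SE 0.11, limma adjusted p = 2.47e-16), a relative change of 2.68-fold. The Il6st start region (chr13:112463427-112464622) averaged 3.80 ± 0.257 and 4.32 ± 0.575 at 72 h, in IRF5-/- and IRF5+/+ cells (SD, n = 4 each), against 5.19 ± 1.88 (n = 3) and 6.85 ± 1.14 (n = 4) at 0 h. On the FPM scale it fell by 0.52 (limma adjusted p = 0.0114), while the relative difference was 0.10 (adjusted p = 0.176).

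Il27ra had a single region, over its boundary (chr8:84041213-84043134). Nearest starts were taken only from genes with a promoter window, which Il27ra lacks, so by that rule the region went to the neighbour Rln3. The region, used here as the Il27ra start region, averaged 1.99 ± 0.168 in IRF5-/- and 2.30 ± 0.523 in IRF5+/+ cells at 72 h (SD, n = 4 each), against 4.58 ± 1.47 in IRF5-/- (n = 3) and 6.33 ± 0.776 in IRF5+/+ cells (n = 4) at 0 h. The relative height fell by 0.69 (SE 0.09, limma adjusted p = 1.93e-09).

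Ifngr1 held the largest fall among the 35 regions on both scales, and none of its regions was gained. The region 13.7 kb before its start (chr10:19577534-19578889) had 0.489, 0.686, 0.598 and 0.702 FPM in IRF5-/- and 0.649, 0.798, 0.842 and 0.583 in IRF5+/+ cells at 72 h, against 6.25, 3.10 and 7.06 in IRF5-/- and 8.70, 7.96, 9.38 and 8.67 in IRF5+/+ cells at 0 h. The highest library at 72 h was at 0.842 and the lowest at 0 h at 3.10. The relative height fell by 2.72 on the log2 scale (SE 0.11, limma adjusted p = 4.32e-27), a 6.58-fold change, and it fell in each genotype, by 2.60 in IRF5-/- and by 2.83 in IRF5+/+ cells. By the deposited fold enrichment over local background the log2 difference was −1.05 (limma adjusted p = 1.76e-07).

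Its neighbour 9.44 kb before the Ifngr1 start (chr10:19582287-19582735) fell by 1.57 (SE 0.12, limma adjusted p = 4.77e-17), with means of 0.757 ± 0.120 in IRF5-/- and 0.917 ± 0.212 in IRF5+/+ cells at 72 h (SD, n = 4 each), against 3.65 ± 1.66 (n = 3) and 4.24 ± 0.543 (n = 4) at 0 h. The start region (chr10:19591332-19592460), the tallest of the 8 start regions at 0 h, averaged 5.18 ± 0.733 and 5.35 ± 0.816 at 72 h, in IRF5-/- and IRF5+/+ cells (SD, n = 4 each), against 11.7 ± 4.35 (n = 3) and 14.6 ± 1.79 (n = 4) at 0 h. Its relative height fell by 0.66 (SE 0.06, limma adjusted p = 9.34e-13). Neither fall was called by the deposited fold enrichment, where the log2 differences were 0.02 at 9.44 kb (limma adjusted p = 0.852) and 0.04 at the start (limma adjusted p = 0.697).

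The mean number of called Ifngr1 regions was 8.25 in IRF5-/- and 10.5 in IRF5+/+ cells at 72 h, against 13.333 and 14.25 at 0 h. Of all regions, a larger share was called at 72 h than at 0 h. Its 3 lost regions lie 5.23 kb past the start (chr10:19596916-19597441, 0 of 8 libraries against 6 of 7, exact test adjusted p = 0.0121), 61.7 kb before it (chr10:19529772-19530768, 2 of 8 against 7 of 7, exact test adjusted p = 0.0308) and 100.1 kb before it (chr10:19491494-19492298, 0 of 8 against 5 of 7, exact test adjusted p = 0.0443). The call at 100.1 kb ended in 13 of 15 fits without a library, with p up to 0.111, and that at 61.7 kb in 9 of 15, with p up to 0.0999. The 3 tested peaks 85.7 to 97.3 kb upstream fell by 0.28 to 0.86 on the relative scale. The call of 0.28, at 97.3 kb (adjusted p = 0.0447), was lost without IRF5-/- replicate 3 at 0 h (adjusted p = 0.0582).

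Ifnar1 had regions that changed in both directions before its start. The region 14.6 kb before it (chr16:91470166-91471074) had 1.91, 2.46, 2.22 and 2.81 FPM in IRF5-/- and 2.23, 2.14, 2.60 and 1.98 in IRF5+/+ cells at 72 h, against 0.953, 0.803 and 1.51 in IRF5-/- and 1.34, 1.76, 1.90 and 2.14 in IRF5+/+ cells at 0 h. The IRF5-/- libraries do not overlap between the times, while those of IRF5+/+ do. It was the 1 region of the 35 to rise on the FPM scale, by 0.75 on the log2 scale (SE 0.20, limma adjusted p = 0.000488), and rose by 1.37 on the relative scale (SE 0.12, limma adjusted p = 2.03e-14).

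The Ifnar1 region 26.8 kb before the start (chr16:91458109-91458749) moved the other way. It averaged 0.898 ± 0.158 in IRF5-/- and 0.884 ± 0.177 in IRF5+/+ cells at 72 h (SD, n = 4 each), against 3.54 ± 1.51 (n = 3) and 4.28 ± 0.701 (n = 4) at 0 h, and fell by 1.47 (SE 0.12, limma adjusted p = 8.1e-16). The region 23.8 kb before the start (chr16:91461190-91461652) was lost, in 0 of 8 libraries at 72 h against 6 of 7 at 0 h (exact test, adjusted p = 0.0121). A region inside the gene 5.88 kb past the start (chr16:91490621-91491566) rose by 0.76 (limma adjusted p = 5.51e-09), with an FPM difference of 0.13 (adjusted p = 0.546) and 0.06 by the deposited fold enrichment (adjusted p = 0.609). The start region (chr16:91484594-91486197) averaged 4.77 ± 0.234 in IRF5-/- and 5.29 ± 0.925 in IRF5+/+ cells at 72 h (SD, n = 4 each), against 7.08 ± 3.09 (n = 3) and 8.58 ± 1.59 (n = 4) at 0 h. On the FPM scale it fell by 0.58 (limma adjusted p = 0.00437), while the relative difference was 0.05 (adjusted p = 0.546). By the deposited fold enrichment it was called lower, at −0.22 (limma adjusted p = 0.0263). Its summit lay between −103 and −96 bases from the start in all 15 libraries, just past the ETS-type match of the printed window.

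**Figure D4:**
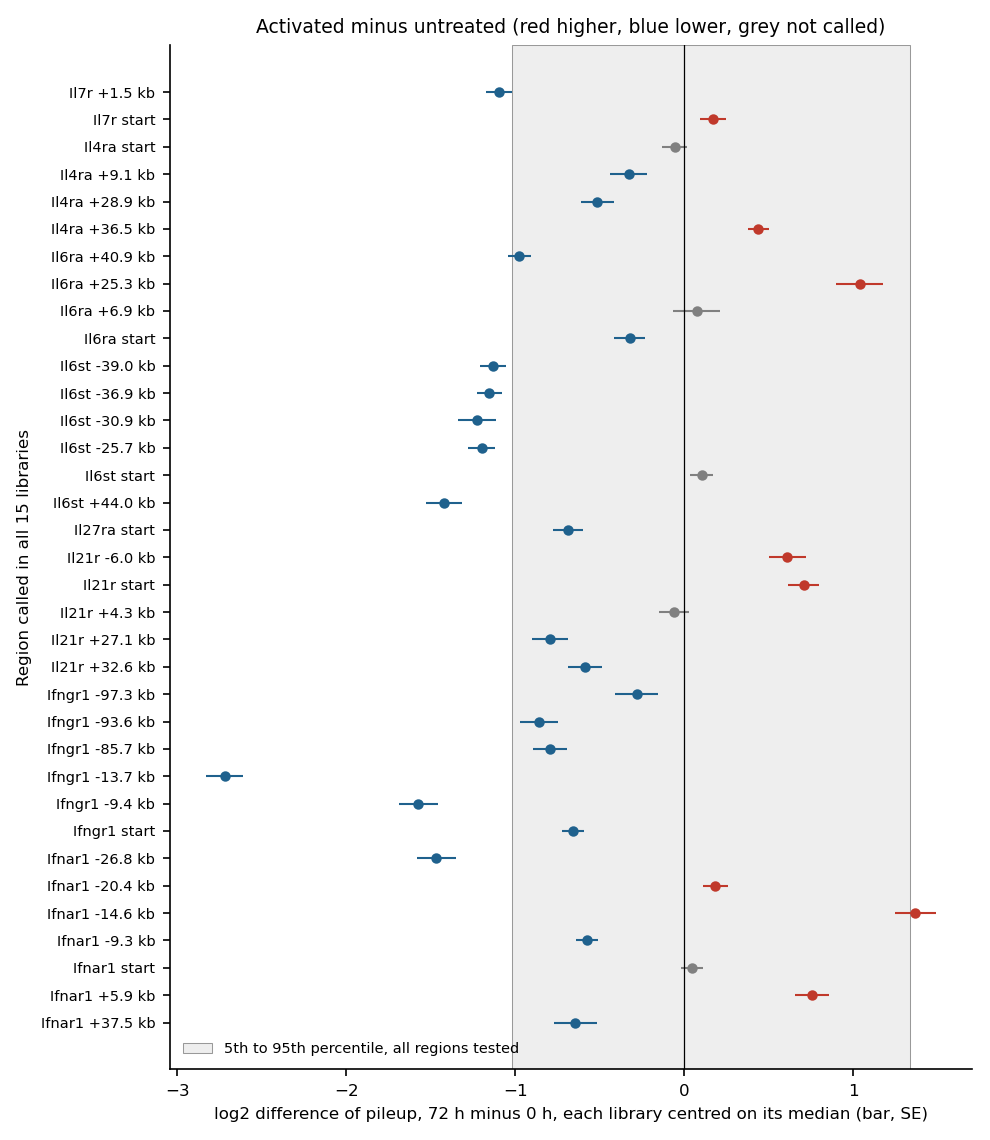
Differences in log2 peak height, 72 h minus 0 h, of the 35 regions called in all 15 libraries (points, bars ± SE), after centring each library on its median; red marks the 8 that rose, blue the 22 that fell, and the grey band the 5th to 95th percentile of all tested regions. The Ifngr1 region at −13.7 kb lies farthest left at −2.72. On the FPM scale, 7 of the points right of 0 turn negative, among them the starts of Il7r, Il6st and Ifnar1.

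On the relative scale the start regions of Il21r and Il7r rose, the call at Il7r (adjusted p = 0.0472) being lost without IRF5-/- replicate 3 at 0 h and its direction turning on the FPM scale, those of Ifngr1, Il27ra and Il6ra fell, and those of Il4ra, Il6st and Ifnar1, which fell on the FPM scale, did not pass the test, with values of −0.06 (SE 0.07), 0.10 (SE 0.07) and 0.05 (SE 0.07). Order by mean start height at 72 h put Ifngr1 and Ifnar1 highest in both genotypes, with Il27ra and Il6ra at the low end. Ifngr1 at 5.18 and Ifnar1 at 4.77 in IRF5-/- cells at 72 h differ by less than the SD of Ifngr1, as do Il6ra at 2.23 and Il27ra at 1.99 by less than the SD of Il6ra. At 0 h Ifngr1 was highest and Il21r lowest in both genotypes.

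The comparison of IRF5-/- with IRF5+/+ cells asked whether loss of Irf5 changes these regions. No member region was called different in peak presence, against 0% of all 83743 regions by the exact test with Benjamini-Hochberg adjustment. The smallest p of this exact test is 0.000408, so after adjustment over all regions it could hardly call any. Its lack of calls therefore does not show that the genotypes are alike. At an unadjusted exact p under 0.05 there were 0 member regions and 1168 of all. The lowest member p was 0.0918, at the region 69.6 kb before the Ifngr1 start (chr10:19521841-19522802), called in 2 of 7 IRF5-/- and 6 of 8 IRF5+/+ libraries. The mean number of the 92 regions called was 63.75 in IRF5-/- and 69.75 in IRF5+/+ cells at 72 h, and 63.0 in IRF5-/- and 69.75 in IRF5+/+ cells at 0 h. Of all regions, 61.1% to 66.9% were called per library in IRF5-/- and 66.05% to 75.15% in IRF5+/+ cells at 72 h. At 0 h these shares were 33.3% to 50.4% and 45.9% to 54.6%. The submitters' final lists held a peak at 60 of the 92 regions for IRF5-/- and 67 for IRF5+/+ cells at 72 h, and at 67 for IRF5-/- and 68 for IRF5+/+ cells at 0 h. The share of all regions in these final lists was not counted.

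Peak height gave 0 calls by limma among the 35 regions at 72 h, at 0 h, over both times and for the interaction, on either scale. Over all regions on the relative scale, 0.94% were higher and 0.264% lower in IRF5-/- cells at 72 h, and 0.0331% were higher and 0% lower at 0 h. Over both times 0.973% were higher and 0.085% lower, and on the FPM scale 0.00472% and 0.151%. At an unadjusted p under 0.05 on the relative scale 3 of the 35 differed at 72 h, 0 at 0 h, 3 over both times and 2 in the interaction (8.57%, 0%, 8.57% and 5.71%), beside 14.7%, 7.91%, 13.4% and 8.76% of all 21176 regions. The 95% intervals of the relative differences ran from −0.76 to 0.62 at 72 h and from −0.55 to 0.81 at 0 h over the 35 regions, and a p that misses the threshold does not show that the genotypes are alike.

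The lowest p at 72 h belonged to the Il6st region 654 bases beyond the gene, at 0.934, 1.17, 0.768 and 0.702 FPM in IRF5-/- and 1.46, 1.38, 1.42 and 1.44 in IRF5+/+ cells. These 72 h groups do not overlap. The relative log2 difference was −0.46 (95% interval −0.76 to −0.17), with an unadjusted p of 0.0029 and a limma adjusted p of 0.103. In the interaction test the difference in its change with activation, IRF5-/- minus IRF5+/+, was −0.57 (limma adjusted p = 0.424). For Ifnar1 the lowest was the region 9.27 kb before the start (chr16:91475364-91476527), at 3.03, 3.75, 3.20 and 3.88 in IRF5-/- and 4.78, 5.48, 5.40 and 3.89 in IRF5+/+ cells at 72 h. Its relative difference at 72 h was −0.25 (95% interval −0.43 to −0.08, limma adjusted p = 0.141).

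Over both times, on the FPM scale, the region of lowest p in each gene had a difference between −0.57 and −0.35 on the log2 scale, beside a median of −0.37 over all 21176 regions. After centring these values were between −0.18 and 0.04. The Ifngr1 start region gave the lowest p over both times after centring, with a difference of 0.18 (95% interval 0.05 to 0.30, limma adjusted p = 0.186). Leaving out IRF5-/- replicate 4 at 0 h, which leaves replicates 1 and 3 in that group, gave 32 member calls on the FPM scale at 0 h and 30 over both times, all lower, beside 17259 and 16748 lower calls among the 21176 regions. Leaving out replicate 1 gave 5 lower calls over both times, beside 5202 among all regions, and leaving out replicate 3 gave 2 lower calls at 72 h, beside 1051, where 0 members were called with every library. These are 14.3% and 5.71% of the members, beside 24.6% and 4.96% of all regions. Replicate 3 was the lowest untreated library at each of the 8 start regions. With each library centred and replicate 3 left out, 0 of the 35 were called at 72 h, 0 h, over both times or in the interaction.

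**Figure D5:**
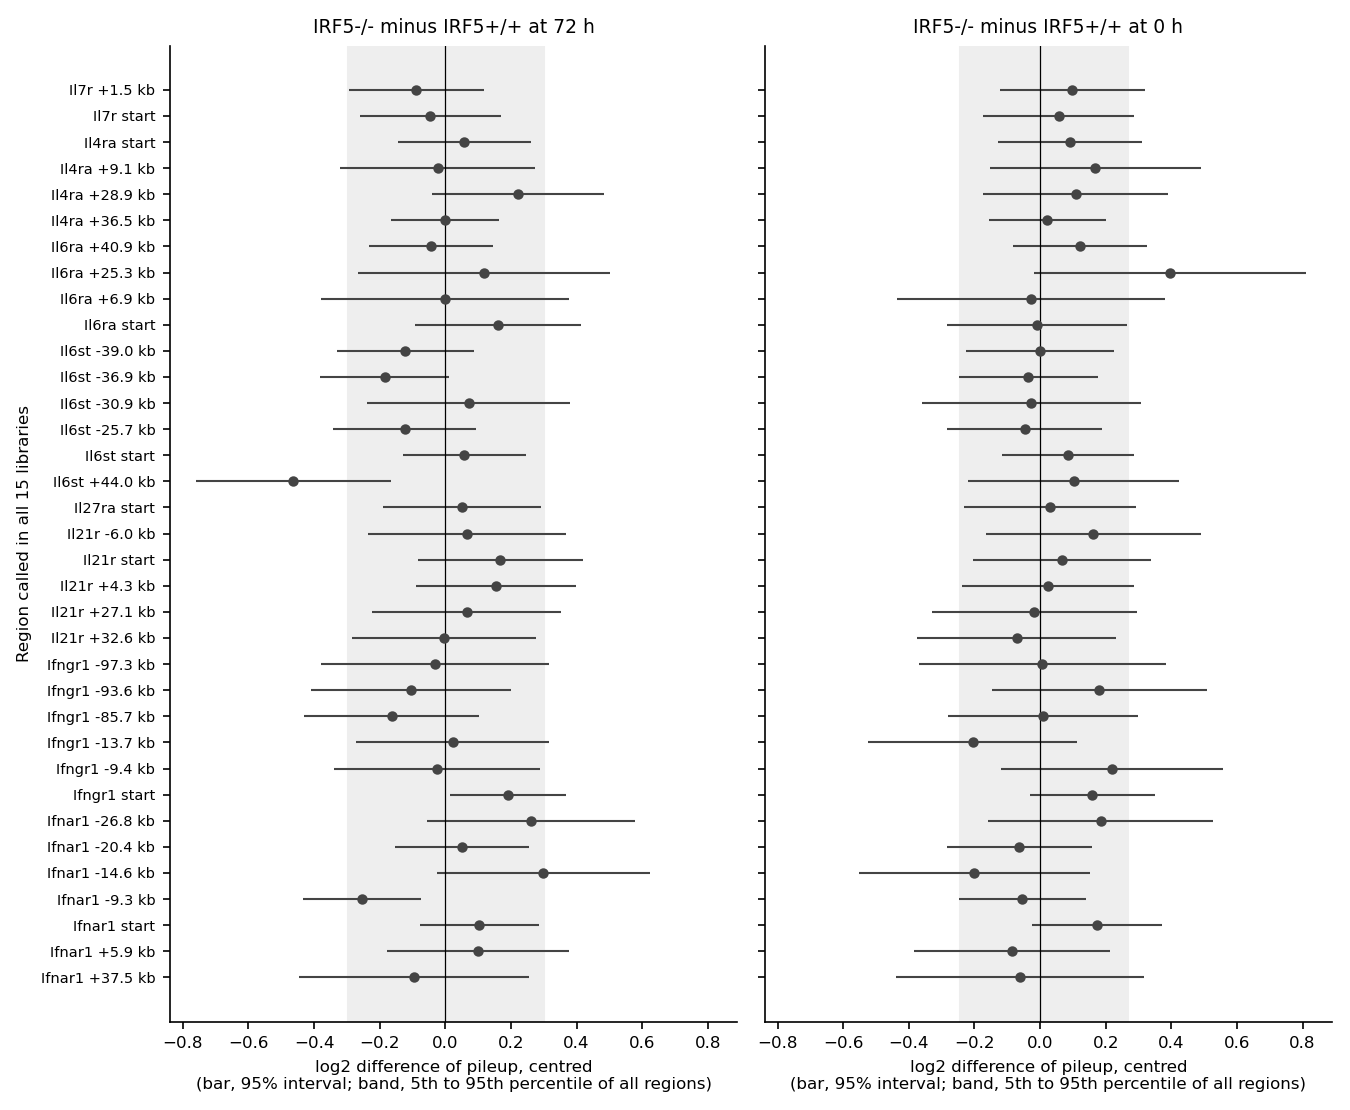
Differences in log2 peak height, IRF5-/- minus IRF5+/+, of the 35 regions at 72 h (left) and 0 h (right) after centring each library on its median, with 95% intervals and the 5th to 95th percentile of all tested regions as a grey band. No point passes the adjusted threshold; the Il6st region at +44.0 kb lies lowest at 72 h, at −0.46.

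Other genes of the same pathways were examined as lists. Beside them, 18.4% of all 83743 regions were gained and 4.65% lost. Of the 21176 regions called in all libraries, 34.4% rose and 39.1% fell on the relative scale. Whether a list differs from these shares was not tested. Among 18 partner receptor chains, 23 of 130 regions were gained and 7 lost (17.7% and 5.38%), led by Il12rb2 (6 gained and 1 lost of 17), which makes T cells responsive to interleukin-12, and Il2ra (3 and 2 of 18), the inducible interleukin-2 receptor chain. Of the partner regions called in all libraries, 16 rose and 7 fell of 31 on the relative scale, with a median of 0.34. For 13 ligand genes, 16 of 78 regions were gained and 2 lost (20.5% and 2.56%), led by Il21 (4 and 2 of 19) and Ifng (5 and 0 of 26), and 4 rose and 6 fell of 11. For 11 Janus kinase and STAT genes, 16 of 120 were gained and 11 lost (13.3% and 9.17%), led by Jak1 (4 and 3 of 37), Jak2 (5 and 1 of 16) and Stat4 (4 and 2 of 19), and 6 rose and 18 fell of 36. For 16 inhibitors, 14 of 103 were gained and 7 lost (13.6% and 6.8%), led by Ptpn2 (3 and 3 of 10), a phosphatase acting on Janus kinases, and Socs6 (4 and 0 of 13), and 13 rose and 11 fell of 30. In each list 0 regions were called by genotype in presence, by the same test that could hardly call any region.

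The gene whose start region varied most like a member's over the 15 libraries was found among 8683 genes by Pearson r of log2 height. It was Spg20 for Il7r (r = 0.98, median over genes 0.86), Csnk2a1 for Il4ra (r = 0.99, median 0.94), Spin2c for Il21r (r = 0.97, median 0.50), Immt for Il6ra (r = 0.99, median 0.91) and Yeats4 for Il6st (r = 0.99, median 0.93). For Il27ra it was Ndufv3 (r = 0.99, median 0.91), for Ifngr1 Samd8 (r = 0.99, median 0.91) and for Ifnar1 Kdm1a (r = 0.99, median 0.91). These values describe libraries that share depth and an overall shift between times, and with centred libraries the same gene came first for Il7r (0.85), Il6ra (0.89), Il27ra (0.96) and Il21r (0.97). No p is given for these values.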

How the data were processed

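ATAC-seq libraries of CD4+ T cells were analysed from the submitters' peak lists, 15 for single libraries, 4 for merged replicates and 4 final lists. Per the submitters' processing notes, Trim Galore 0.5.0, Bowtie2 2.2.9, MACS2 and HOMER 4.10.4 were used with mm10. Per the file headers, MACS2 2.1.1.20160309 called peaks on read pairs without a control at a q-value cutoff of 0.05, keeping 1 fragment per position, and the IRF5+/+ library 4 came from an alignment numbered 5. The deposited pileup signal is fragment coverage at a peak's summit, not scaled to depth. The deposited fold enrichment is MACS2's ratio of pileup to local background, and the deposited −log10 q values were used as a filter in 1 alternative. The sources used here do not give how the final lists were chosen. Heights exist for called peaks only.

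Lists were merged (overlap of 1 bp or more) into 111393 regions, of which 83743 seen in at least 2 libraries were tested, and assigned to the nearest of 21900 protein-coding genes of GRCm38.p6 within 100 kb (93.5% assigned). Height is the highest pileup in a region per 1000000 fragments after filtering (FPM), 20.5 M to 29.0 M by library. Depth therefore bounds which weak peaks could be called. Presence was tested by a two-sided exact conditional test that counts libraries with a called peak, stratified by genotype or time. The smallest p it gives is 0.000408. Height was tested with limma 3.58.1 (R 4.3.3, trended empirical Bayes, 1 mean per group) on log2 height, without a pseudocount, over the 21176 regions called in all libraries. On the FPM scale the fit took the spread of each region from the trend over all regions. Its p-values there do not measure a region's own spread between libraries. Both used Benjamini-Hochberg adjustment over all regions and a threshold of 0.05. The centred scale subtracts each library's median log2 height over those regions. Both scripts recovered changes planted in simulated data, which held neither unequal peak numbers between libraries nor a shift of all heights between the times. Python 3.11.15, numpy 2.4.6, pandas 2.3.3 and scipy 1.17.1 were used.

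For each member the text names the start region, every region gained or lost, up to 3 regions with the largest height differences among those called in all libraries, and the region of lowest genotype p. Regions of Il7r and Il6ra given from the fit over at least 2 libraries of each group were chosen after their values were seen. Promoter windows are RefSeq's. Marker genes without a window were scored over either gene boundary. The members and lists were chosen with earlier results of these data known. Alternatives are listed with their effects below, and those without IRF5-/- replicate 3 at 0 h combined with centring or equal peaks, and centring with a replicate block, were chosen after seeing the data.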

Additional observations from a re-analysis of the deposited data

Results flagged for a closer look

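In groups of 4 libraries, 19 of 129 values examined lay apart from the other 3 by Dixon's test at the 95% level, where chance flags about 1 in 20. Most are counts of called regions in which the other 3 libraries tie, so that a difference of 1 region is enough. For the number of called regions, they are IRF5-/- replicate 1 at 72 h with 10 Il6ra regions, IRF5-/- replicate 2 at 72 h with 7 Il21r, 9 Ifngr1 and 9 Ifnar1 regions, IRF5+/+ replicate 3 at 72 h with 13 Il6ra regions and IRF5+/+ replicate 4 at 72 h with 9 Ifngr1 regions. At 0 h they are IRF5+/+ replicate 3 with 6 Il7r, 15 Il6st and 9 Il21r regions and IRF5+/+ replicate 4 with 8 Il4ra and 15 Ifngr1 regions.

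Of the log2 heights, IRF5+/+ replicate 4 at 72 h was low at the Il6st start (1.79, others 2.19 to 2.23) and the Ifnar1 start (1.97, others 2.48 to 2.57). IRF5+/+ replicate 1 at 72 h was low at the Il6ra start (0.96) and IRF5-/- replicate 1 at 72 h 1271 bases beyond Il4ra (0.80). High were the Il6ra start in IRF5+/+ replicate 4 at 0 h (2.80), the Il27ra region in IRF5-/- replicate 4 at 72 h (1.17) and IRF5+/+ replicate 2 at 72 h (1.62), and the Ifnar1 region 26.8 kb before the start in IRF5+/+ replicate 3 at 72 h (0.20).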

How the results depend on the processing

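Over the alternatives, presence calls of the 92 regions moved with the number of peaks: with the 29994 strongest peaks of each library 6 were gained and 18 lost, against 9 and 9, and with the 39807 strongest and no IRF5-/- replicate 3 at 0 h 5 were gained and 18 lost. Over all regions tested, the equal-peak lists gave 6629 gained and 6335 lost of 44850, and the full lists 15380 and 3895 of 83743. The lists of 39807 peaks gave 6910 gained and 6521 lost of 59179. Requiring peaks over 0.5 of a region gave 8843 gained. Leaving out each library gave 9 gained throughout and 6 to 8 lost. Genotype gave 0 presence calls under these alternatives, with 28 to 2558 regions at an unadjusted p under 0.05.

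Rising regions among the 35, 1 in the main FPM fit, numbered 8 after centring, 4 by fold enrichment, 5 of 48 over regions called in at least 2 libraries of every group, 2 with a pseudocount of 1, 7 with centring and a replicate block and 6 with centring without IRF5-/- replicate 3 at 0 h. In IRF5-/- cells these were 6, 2, 2, 1, 7 and 6 against 1, and in IRF5+/+ cells 6, 1, 2, 0, 6 and 6 against 0. Falls in IRF5+/+ cells were 18 by fold enrichment against 28. Over all regions, 12% of calls were higher on the FPM scale and 46.8% after centring. Leaving out libraries gave 1 to 2 rises, 0 to 30 genotype calls, 0 to 32 at 0 h and 0 to 2 at 72 h. The fit over regions called in at least 2 libraries of each group made 1 genotype call, at Il6st 10.3 kb past the start (FPM difference −0.65, adjusted p = 0.0397), and 1093 lower over all regions against 32.

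Signs that turned from the FPM fit were, with centring, with centring and block and with centring without IRF5-/- replicate 3: Il6st start 0.10, 0.10 and 0.13, Il7r start 0.17, 0.17 and 0.18, Ifnar1 20.4 kb before the start 0.18, 0.20 and 0.15, Ifnar1 start 0.05, 0.05 and 0.04, Il6ra 6.86 kb past the start 0.07, 0.09 and 0.14, Il4ra 8973 bases beyond the gene 0.44, 0.43 and 0.42, and Il21r 6.05 kb before the start 0.61, 0.65 and 0.65. By fold enrichment they were Ifngr1 97.3 kb and 9.44 kb before the start and its start (0.03, 0.02 and 0.04), Il7r start 0.99 and Il6ra 6.86 kb past the start 0.14. Leaving out a library, Il21r 6.05 kb before the start ranged from −0.17 to 0.13 and its start from −0.11 to 0.21. The cause was not tested.

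The labels do not say whether replicate numbers pair the libraries. Same-number correlations of deviations were −0.17 to 0.23. The highest was that of replicate 4 between genotypes at 0 h, where the mean with other numbers was −0.07. With a replicate block, 0 regions were gained and 0 lost, since the smallest p that test gives is 0.0156, and height counts were 1 and 27, with Il21r 6.05 kb before the start at 0.02. The block moved the adjusted p of the Il7r start to 0.0521 in FPM and 0.0502 centred, and that of Ifngr1 97.3 kb before the start to 0.0672 centred. Counting within 20 kb left 73 of the 92 regions (13 for Il6st, 7 for Ifngr1), and the nearest gene start gave 121 regions assigned to the members (23 for Il7r, 8 for Il4ra, 17 for Il21r, 0 for Il27ra). The value for Il27ra was fixed in advance, since only genes with a promoter window could be chosen and Il27ra has none.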
